A study of Homo sapiens with 6 samples.

Results

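MOV10 and 9 mRNAs of the Argonaute and microRNA machinery were followed in MDA-MB-231, a cell line long established from a triple-negative breast cancer, after RNA interference against NRDE2. The 10 genes (MOV10, AGO1, AGO2, AGO3, TNRC6A, TNRC6B, TNRC6C, DICER1, DROSHA and DGCR8) were found by their symbols among the 25365 rows of the deposited expression table, and all 10 were among the 11789 genes expressed highly enough to be tested. MOV10 was selected on its fold change in this comparison, among the largest falls of the table, so its FPKM values are given as a description with no test. The other 9 were chosen for their roles.

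The study had 2 groups of 3 libraries. Cells of the control group received 20 nM of a negative control siRNA (si-Control) and those of the other group 20 nM of an siRNA against NRDE2 (si-NRDE2-2), both with the reagent lipofectamine RNAiMAX, and RNA was collected 48 h later. A single NRDE2 siRNA was used, and si-Control was the only comparison, with no untransfected group. Loss of NRDE2, other effects of this siRNA and effects of the control siRNA therefore cannot be told apart. Nothing in the labels says that the 3 libraries of a group came from separate cultures, and a p-value therefore covers only how far these libraries vary, which may be technical variation.

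MicroRNAs are cut from long nuclear transcripts by the Microprocessor, made of the nuclease DROSHA and its RNA-binding partner DGCR8. DICER1 then trims the exported hairpin, and an Argonaute protein (AGO1 to AGO4) takes up a strand and uses its seed to find matching sites, mostly in 3′ untranslated regions (3′ UTRs). TNRC6 proteins bind Argonaute and recruit the enzymes that shorten the poly(A) tail, while MOV10, an RNA helicase related to UPF1, associates with Argonaute and restricts retroelements. Small interfering RNAs enter the same Argonaute proteins, so the tool of this experiment runs through the machinery described here. NRDE2 itself works in the nucleus, where it binds MTREX, a helicase of RNA decay.

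Values are FPKM (fragments relative to transcript length and sequencing depth), given in the order of replicates 1, 2 and 3. Depth estimated from the spacing of low values was 41700000 to 57400000 fragments per library. NRDE2, which the siRNA targets, stood at 4.39, 4.45 and 3.80 FPKM with si-Control and at 0.230, 0.234 and 0.229 FPKM with si-NRDE2-2. Each library matched its label. VIM, CD44, AXL and CAV1, which mark mesenchymal-like breast cancer lines, were abundant in all 6 libraries, ESR1 and PGR (hormone receptors) and the leukocyte gene PTPRC were near 0, and the endothelial gene PECAM1 was at or under 1.19 FPKM. The epithelial or luminal genes ERBB2, EPCAM and GATA3 were detected at 12.8 ± 0.166, 8.20 ± 0.367 and 2.09 ± 0.167 FPKM in the controls, and the epithelial gene CDH1 was at 0.408 ± 0.0373 FPKM, under the filter. Of the 11789 genes tested, 44.0% were called changed at an adjusted p under 0.05 (limma, Benjamini-Hochberg), 20.9% upward and 23.0% downward. Counts of members are to be read against these shares.

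MOV10 mRNA was lower in every si-NRDE2-2 library. It measured 24.2, 23.6 and 21.9 FPKM in the controls and 11.7, 10.3 and 9.69 FPKM after knockdown. The highest knockdown library had less MOV10 than any control library, which its selection for a large fall favoured in advance. Over all genes tested, 28.3% were lower after knockdown with no overlap between the groups. The mean went from 23.2 ± 1.20 to 10.6 ± 1.04 FPKM (SD, n = 3), a ratio of 0.455, and the log2 fold change was -1.13 ± 0.07 (SE) on the log2(FPKM + 0.1) scale used for every log2 value here. MOV10 stood 8th from the largest fall among the genes tested, and 14 genes had a log2 fold change of -1 or below. These are bulk libraries, in which fewer cells carrying an mRNA and less of it per cell cannot be told apart.

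The order of the 10 mRNAs by level mainly restates the fall for which MOV10 was selected. In the si-Control libraries MOV10 was the most abundant of the 10 mRNAs by FPKM, above DROSHA, DICER1 and AGO2. The ranges of DROSHA, DICER1 and AGO2 overlapped in a run from 9.64 to 13.9 FPKM. TNRC6A and DGCR8 followed at 8.63 ± 0.714 and 6.74 ± 0.459 FPKM, then AGO3 and AGO1 with overlapping ranges, TNRC6B and, lowest, TNRC6C. In the si-NRDE2-2 libraries AGO2, DROSHA, DICER1, MOV10 and TNRC6A formed a run in which each overlapped the next. The ratio of MOV10 to AGO2 FPKM was 1.95, 2.04 and 2.27 in the control libraries and 0.951, 0.733 and 0.686 in the knockdown libraries. It draws on the same selected MOV10 values and is a description with no test. Levels of different genes depend on the transcript lengths the authors used, which are not stated.

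**Figure D1:**
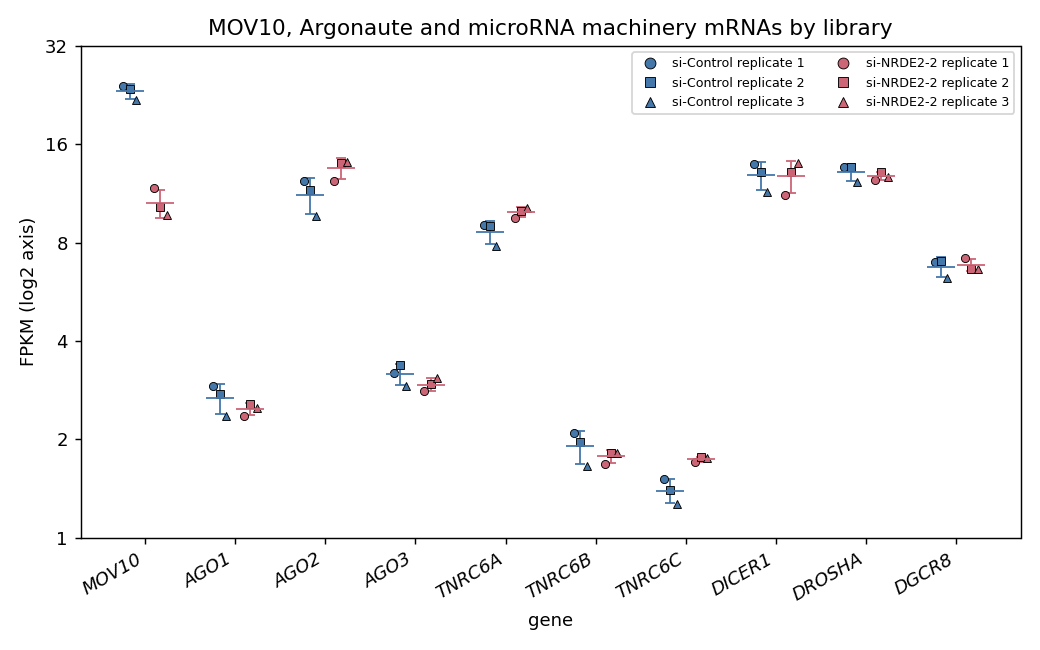
FPKM of the 10 mRNAs (log2 axis) in each library, circles, squares and triangles for replicates 1, 2 and 3, with the mean and SD of each group (n = 3). MOV10 falls from between 21.9 and 24.2 to between 9.69 and 11.7 FPKM, the means of the other 9 differ less between the groups, and the triangle of si-Control replicate 3 is the lowest control value of each gene.

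Of the genes on either side of MOV10, 1 rose and 1 fell by less than MOV10. CAPZA1, an actin-capping protein subunit whose gene lies just upstream on the same strand, was at 57.4, 56.4 and 59.6 FPKM in the control libraries and 100.8, 106.8 and 106.1 FPKM in the knockdown libraries, a rise (log2 fold change 0.85 ± 0.04, adjusted p = 1.81e-07 in limma). RHOC, a small GTPase gene that converges on MOV10 from the opposite strand, went from 276.5 ± 20.9 to 239.9 ± 5.77 FPKM (-0.20 ± 0.06, adjusted p = 0.0165). An antisense transcript is annotated across MOV10, and the strand setting behind the values is not stated, so reads of the 2 strands cannot be told apart. MOV10L1, the germline paralog of MOV10, was at or below 0.0461 FPKM and was not tested.

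The 5 tested genes whose profile over the 6 libraries was most like that of MOV10 were UCA1, TAZ, MCAM, ARHGEF10 and CNTNAP1. Likeness was the root mean square difference between log2 profiles centred on their own means, and it ran from 0.0529 for UCA1, a long noncoding RNA, to 0.0765 for CNTNAP1. TAZ is the older symbol of the tafazzin gene of cardiolipin remodelling, and MCAM encodes a cell adhesion molecule. Their log2 fold changes lay between -1.12 and -0.995. With 2 groups, this measure mostly picks genes with a fall close in size to that of MOV10, so the list largely restates that fall. The profiles share the same 6 libraries, so the likeness describes these libraries.

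Of the 9 genes other than MOV10, 3 rose, 0 fell and 6 were not called (limma, adjusted p under 0.05), against 20.9% and 23.0% of all genes tested. At an unadjusted p under 0.05 in the same limma fit, 3 were higher and 0 lower. The share of all genes at that threshold is not given, here or for the lists below, so such counts have no background beside them. Their log2 fold changes ran from -0.10 to 0.30 with a median of -0.01, beside -0.02 for all genes tested. The 3 that rose were AGO2, TNRC6A and TNRC6C.

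Among the nucleases, neither Microprocessor subunit nor DICER1 passed the test. DROSHA was at 13.6, 13.7 and 12.3 FPKM in the controls and 12.4, 13.2 and 12.7 FPKM after knockdown (-0.04 ± 0.05, adjusted p = 0.571). DGCR8 was at 6.98, 7.03 and 6.21 FPKM against 7.18, 6.66 and 6.66 FPKM (0.02 ± 0.06, adjusted p = 0.822). DROSHA and DGCR8 overlapped between groups and kept a ratio of 1.95 ± 0.0163 in the controls and 1.87 ± 0.128 in the knockdown libraries. DICER1 was at 13.9, 13.2 and 11.5 FPKM in the controls and 11.2, 13.2 and 13.98 FPKM in the knockdown libraries (-0.01 ± 0.09, adjusted p = 0.939). Its lowest and its highest value both came from knockdown libraries. The sign of the DICER1 and DGCR8 differences turned when single libraries were left out, as given in the closing section.

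Several transcripts overlap DGCR8, DICER1 or TNRC6C. TRMT2A, a tRNA methyltransferase gene on the strand opposite DGCR8, rose from 5.10 ± 0.178 to 6.90 ± 0.392 FPKM (0.43 ± 0.06, adjusted p = 0.000224, limma), and whether its reads entered the DGCR8 value was not tested. DICER1-AS1, an antisense RNA, was at 0.663 to 1.06 FPKM in controls and 0.948 to 1.35 FPKM after knockdown (adjusted p = 0.143). TNRC6C-AS1, which overlaps TNRC6C in antisense, was at 3.61 ± 0.333 and 3.65 ± 0.206 FPKM (adjusted p = 0.880). The microRNA genes MIR3618 and MIR1306 lie inside DGCR8 and MIR3173 inside DICER1. MIR3618 and MIR3173 were listed at 0 and MIR1306 at no more than 3.16e-55 FPKM, which does not measure microRNAs, because poly(A)-selected libraries hold little small RNA and FPKM of such short genes is unstable. The mature products of the DGCR8 hairpins, from RefSeq (GRCh38.p14), are shown with the seed (bases 2 to 8) in capitals; they share no seed.
hsa-miR-3618: uGUCUACAuuaaugaaaagagc
hsa-miR-1306-5p: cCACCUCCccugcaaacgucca
hsa-miR-1306-3p: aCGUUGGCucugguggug

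DICER1 is a textbook target of miR-103 and miR-107, whose hosts are the PANK genes, so their sequences are shown beside its 3′ UTR. The 2 mature microRNAs (RefSeq, GRCh38.p14) have the same seed, in capitals. The DICER1 3′ UTR in the GENCODE release 29 transcript used here holds the matching ATGCTGC 5 times, on the minus strand of chromosome 14. Its first and second matches (GRCh38) are at chr14:95089446-95089475 and chr14:95088845-95088874, with the match in capitals.
hsa-miR-103a-3p: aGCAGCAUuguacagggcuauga
hsa-miR-107: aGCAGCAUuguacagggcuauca
DICER1 first match: acacctaaaatATGCTGCagattttataat
DICER1 second match: tgcttcgtggaATGCTGCatttatatgtaa
ATGCTGC lies in 12.9% of the 3′ UTRs searched, and also in those of AGO1 (3 times), AGO2 (5 times), AGO3 and TNRC6B (3 times). These 4 have 3′ UTRs of 10921 to 16755 bases and DICER1 one of 4270 bases, against a median of 1100 bases for the genes tested, so the share over all genes is not one for 3′ UTRs of their length. Of the host transcripts, PANK2 rose from 18.7 ± 0.470 to 23.7 ± 0.222 FPKM, PANK3 was at 27.3 ± 2.67 and 24.5 ± 2.11 FPKM (adjusted p = 0.115) and PANK1 was below the expression filter. A match is a stretch of letters and shows no binding.

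AGO2, the human Argonaute best known for slicing its target, was the only one of the 4 Argonaute mRNAs called changed. AGO2 measured 12.4, 11.6 and 9.64 FPKM in the controls and 12.3, 14.1 and 14.1 FPKM after knockdown. The groups overlapped, since si-NRDE2-2 replicate 1 lay under si-Control replicate 1. AGO2 rose from 11.2 ± 1.41 to 13.5 ± 1.01 FPKM (0.27 ± 0.09, adjusted p = 0.0256, limma). The call was lost without si-Control replicate 3 (0.17, adjusted p = 0.0714), without si-NRDE2-2 replicate 2 (adjusted p = 0.0841) or replicate 3 (adjusted p = 0.0874), with no expression filter (0.0844) and with libraries scaled to the same FPKM total (0.0717).

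AGO1, AGO3 and AGO4, which lie head to tail in a cluster on chromosome 1, were low and not called. AGO1 was at 2.92, 2.74 and 2.36 FPKM in controls and 2.36, 2.57 and 2.48 FPKM after knockdown (-0.10 ± 0.09, adjusted p = 0.361, limma). AGO3 was at 3.20, 3.38 and 2.91 FPKM and then 2.80, 2.95 and 3.07 FPKM (-0.10 ± 0.08, adjusted p = 0.312). AGO4, the remaining paralog, was at 3.90, 4.0 and 3.54 FPKM and then 3.61, 3.79 and 4.13 FPKM (0.01 ± 0.07, adjusted p = 0.910). AGO1, AGO3 and AGO4 each overlapped between the groups.

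Within each library, AGO2 made up 55.3%, 53.4% and 52.3% of the summed FPKM of the 4 Argonaute genes in the controls and 58.4%, 60.1% and 59.3% after knockdown. The AGO2 shares did not overlap between groups, whereas the AGO2 levels did. The AGO1 share was 12.8% ± 0.207 and 10.9% ± 0.393, and the AGO3 share 15.2% ± 0.799 and 12.9% ± 0.329. The AGO4 share was 18.3% ± 0.890 and 16.9% ± 0.585. The shares of AGO1, AGO3 and AGO4, all lower after knockdown, did not overlap between groups either. The shares within a library must sum to 100 percent and were not tested. The summed Argonaute level was 20.9 ± 2.11 FPKM in the controls and 22.8 ± 1.44 FPKM after knockdown.

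**Figure D2:**
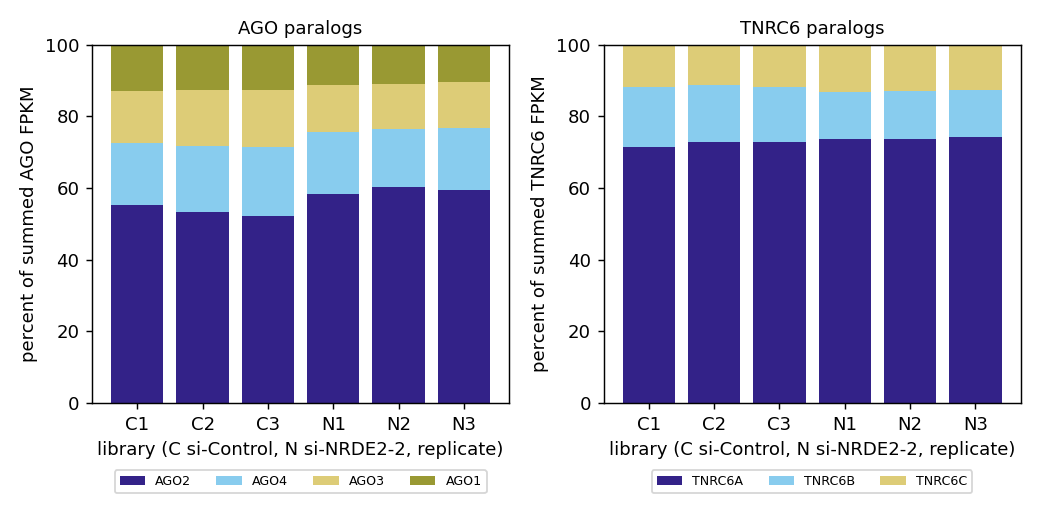
Share of each paralog in the summed FPKM of the 4 AGO genes (left) and the 3 TNRC6 genes (right), in percent, for each library (C, si-Control; N, si-NRDE2-2; number, replicate). AGO2 holds 52.3% to 55.3% in the controls and 58.4% to 60.1% after knockdown, while TNRC6A holds over 70% throughout.

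The TNRC6 genes, whose proteins link Argonaute to the deadenylases, had 2 members that rose and 1 that was not called. TNRC6A was at 9.06, 9.02 and 7.81 FPKM in the controls and 9.54, 10.0 and 10.2 FPKM after knockdown, with no overlap, and rose (0.20 ± 0.06, adjusted p = 0.0263, limma). TNRC6C, the least abundant, was at 1.51, 1.40 and 1.27 FPKM and then 1.70, 1.76 and 1.75 FPKM, again with no overlap, and rose (0.30 ± 0.09, adjusted p = 0.0161). TNRC6B was at 2.09, 1.97 and 1.66 FPKM and then 1.68, 1.82 and 1.82 FPKM (-0.09 ± 0.09, adjusted p = 0.459). Over all genes tested, the groups did not overlap for 53.5%, with 25.2% higher and 28.3% lower after knockdown.

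The calls of TNRC6A and TNRC6C depended on which libraries were fitted. The TNRC6A call was lost without si-Control replicate 3 (0.13, adjusted p = 0.0635), without si-NRDE2-2 replicate 2 (adjusted p = 0.0794) or replicate 3 (adjusted p = 0.0759), with no filter (0.0640) and with the same FPKM total (0.0909). TNRC6C was lost without si-NRDE2-2 replicate 2 (adjusted p = 0.0563). TNRC6B made up 16.5%, 15.9% and 15.4% of the 3 TNRC6 genes in the controls and 13.0%, 13.4% and 13.2% after knockdown, a description with no test. The fewest fragments of the 10 genes, about 700, were those of TNRC6C in si-NRDE2-2 replicate 3.

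The si-Control replicate 3 library was the lowest of the controls for 10 of the 10 genes. The median of the 10 lay 0.13 below the control mean there on the log2 scale and 0.09 above it in replicate 1. In the same library the 2899 tested genes with the longest transcripts (4809 bases or more) had a median 0.07 below the group mean, and the 2900 with the shortest (up to 1979 bases) a median 0.07 above it. The 10 genes have long transcripts, with a median of 10035 bases (3641 for MOV10 to 19687 for AGO3) against 3087 for all genes tested. With trends of length and GC content removed from each library, the calls of AGO2, TNRC6A and TNRC6C were kept, while 55.5% of all genes were then called.

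**Figure D3:**
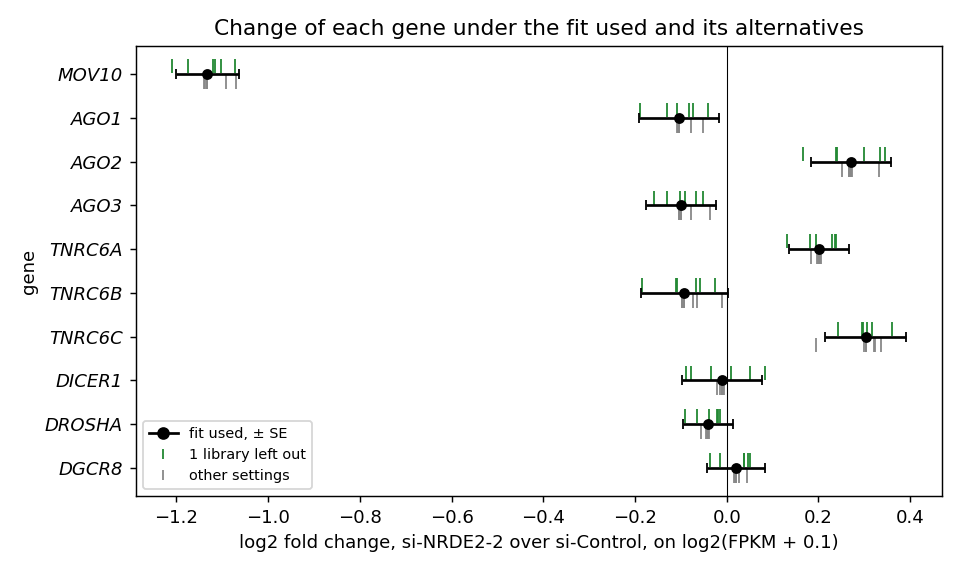
Log2 fold change (si-NRDE2-2 over si-Control) of the 10 genes, with the SE of the fit as bars, green ticks for fits that leave out 1 library and grey ticks for the other settings. MOV10 lies between -1.21 and -1.07 in every setting, and DICER1 and DGCR8 have ticks on both sides of 0.

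Sequences in the 3′ UTRs were read next, because 3 short sequences had been picked in an earlier look at these same fold changes as more frequent among genes that rose, which makes them no independent evidence here. On the transcript strand, GACGTA lies in 3.92% of the 11087 3′ UTRs searched. The sequence GACAGTA lies in 7.68% and the sequence GACTGTA in 9.09%, and at least 1 of the 3 in 17.9%. Of the genes that carry any of them 39.6% rose, against 17.4% of those without. MOV10, TNRC6A, TNRC6C, DICER1, DROSHA and DGCR8 carry none in the transcripts used here. AGO1 holds GACTGTA 3 times and AGO3 holds it 2 times. TNRC6B has a single GACAGTA, and AGO2 a single GACGTA. Those 4 are the genes of the 10 with the longest 3′ UTRs, and the shares above are not matched for length.

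Windows of 30 bases around such matches (GRCh38, GENCODE release 29) are shown for AGO1, AGO3 and TNRC6B, which were not called, and for CAPZA1, HSP90AA1, NRAS and MCL1, which rose, with the match in capitals. They lie at chr1:35924768-35924797 (AGO1, plus strand), chr1:36058992-36059021 (AGO3, plus), chr22:40330452-40330481 (TNRC6B, plus), chr1:112670898-112670927 (CAPZA1, plus), chr14:102081444-102081473 (HSP90AA1, minus), chr1:114707467-114707496 (NRAS, minus) and chr1:150576909-150576938 (MCL1, minus).
AGO1: ggtgacggggaGACTGTAgaaggaaggtgg
AGO3: ctttagggaatGACTGTAgataccctttct
TNRC6B: acagagaggagGACAGTAcatcctatgtgt
CAPZA1: tcaagaactgctGACGTActgtggatgtag
HSP90AA1: cgtgcactgtaaGACGTAtgtaacatgatg
NRAS: cttcacaactttGACGTAattaaatccaac
MCL1: aatagaactatGACTGTAagcctcagtact
Matches stood in genes that rose, in genes that were not called and in genes that fell: at least 1 of the 3 sequences lies in 33.3% of the searched genes that rose, 15.5% of those not called and 9.7% of those that fell. LIMD1 and TUT4 (listed as ZCCHC11), carriers among the pathway genes described below, fell. Among the 10 genes themselves, AGO2 was the carrier that rose.

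Beyond the 10 genes, 9 lists of the pathway were counted, each beside 20.9% rising and 23.0% falling over all genes tested. Of 14 tested Microprocessor cofactors, 6 rose and 0 fell (limma; 1 was lower at an unadjusted p under 0.05), with a median log2 fold change of 0.08. DDX5 and DDX17, paralogous RNA helicases that help DROSHA, rose by 0.32 ± 0.04 (adjusted p = 0.00017, limma) and 0.18 ± 0.04 (adjusted p = 0.00653), and TARDBP, an RNA-binding protein, by 0.22 ± 0.05. HNRNPA2B1 and ERH were among the others that rose.

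Of 15 genes of hairpin export, dicing and Argonaute loading, 2 rose and 6 fell (median -0.09). XPO5, the exporter of hairpins, fell from 31.7 ± 0.798 to 25.8 ± 0.372 FPKM (-0.30 ± 0.04, adjusted p = 0.000174, limma), and ADAR, which edits double-stranded RNA, fell by 0.34 ± 0.04. The 2 cytosolic HSP90 chaperones, which open Argonaute for loading, went opposite ways. HSP90AA1, a carrier of GACGTA, rose from 248.0 ± 5.41 to 425.8 ± 21.2 FPKM (0.78 ± 0.05, adjusted p = 1.08e-06) and HSP90AB1 fell from 807.0 ± 34.8 to 677.1 ± 7.92 FPKM (-0.25 ± 0.05). DNAJA2, a co-chaperone, rose by 0.13.

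Of 18 Argonaute partners and modifiers, 4 rose and 4 fell (median 0.02). FXR2, an RNA-binding protein of the fragile X family, rose by 0.30 ± 0.05 (adjusted p = 0.000459, limma), PPP6C, a phosphatase that acts on AGO2, by 0.15 and ZSWIM8, a ubiquitin ligase subunit of microRNA decay, by 0.21. Also of the fragile X family, FMR1 and FXR1 were not called (0.02 and -0.02). The LIM-domain genes LIMD1 and WTIP fell by 0.16 and 0.21, while AJUBA, another LIM-domain gene, was not called (0.07, adjusted p = 0.206, limma). MTDH fell by 0.14.

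Of 26 silencing effectors, 4 rose and 6 fell (median -0.02). CNOT7, a catalytic subunit of the CCR4-NOT deadenylase, rose from 19.5 ± 0.297 to 34.2 ± 1.81 FPKM (0.80 ± 0.05, adjusted p = 4.16e-07, limma), and its 3′ UTR holds such sequences at 5 places. CNOT2 and CNOT9 (listed as RQCD1) rose by 0.24 and 0.25, whereas CNOT3 fell by 0.32 and PAN2, of the other deadenylase, by 0.41 ± 0.06. PABPC1, the poly(A)-binding protein, fell by 0.24. Subunits of CCR4-NOT thus stood on both sides, with CNOT1 and CNOT10 lower.

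Of 13 genes of small RNA tailing and turnover, 2 rose and 4 fell (median 0.03). TSN and TSNAX, which form the C3PO nuclease, rose by 0.20 and 0.18, while TUT1, PNPT1 and the uridylyltransferase TUT4 (listed as ZCCHC11) fell by 0.27, 0.28 and 0.22. Among 9 tested helicases related to MOV10, 0 rose, also at an unadjusted p under 0.05, and 3 fell (limma, median -0.01): UPF1, of nonsense-mediated decay, by 0.20 ± 0.04 (adjusted p = 0.00323, limma), IGHMBP2 by 0.22 and DNA2 by 0.26. HELZ, HELZ2, ZNFX1, AQR and ZGRF1 were not called.

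Retroelement restriction, the other known role of MOV10, was counted over 20 tested genes, of which 3 rose and 7 fell (median -0.01). TRIM5, a retroviral capsid sensor, fell from 10.3 ± 0.146 to 6.25 ± 0.122 FPKM (-0.71 ± 0.05, adjusted p = 1.39e-06, limma). RNASEH2A, RNASEH2B and RNASEH2C, the subunits of RNase H2, fell by 0.49, 0.20 and 0.15, and MORC2, of HUSH silencing, by 0.30. FAM208A (the HUSH subunit TASOR) rose by 0.26, APOBEC3G by 0.51 ± 0.11 and SAMHD1 by 0.22.

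Of 25 host transcripts of microRNAs, 10 rose and 5 fell (median 0.05). MEST, host of miR-335, rose from 7.39 ± 0.290 to 15.8 ± 0.400 FPKM (1.08 ± 0.05, adjusted p = 6.55e-08, limma), CTDSPL, host of a miR-26 gene, by 0.68 and VMP1, next to miR-21, by 0.42. SREBF2, host of miR-33a, fell by 0.39, MCM7, host of the miR-106b cluster, by 0.30 and R3HDM1 by 0.27. A host mRNA was measured here and its microRNA was not.

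Of 25 textbook microRNA targets tested, 12 rose and 3 fell, with a median of 0.15 beside -0.02 for all genes. MET, a receptor tyrosine kinase, rose by 1.62 ± 0.05 (adjusted p = 6.74e-09, limma), the RAS gene NRAS by 1.21 and the survival gene MCL1 by 0.98. TXNIP, PDCD4 and RECK, tumour suppressors or negative regulators, fell by 0.25, 0.16 and 0.22. Of the 25 targets, 10 carry at least 1 of the 3 sequences in the transcript used here, against 17.9% of all searched. Among the 12 that rose 8 carry them, beside 33.3% of all searched genes that rose, and among the 3 that fell 0 do, beside 9.7%. The 3 sequences were picked on these same fold changes, and the list was written with earlier results of these data known. A high share among the targets that rose was therefore favoured in advance and is no independent evidence. The part of those sequences in the 12 rises was not tested.

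**Figure D4:**
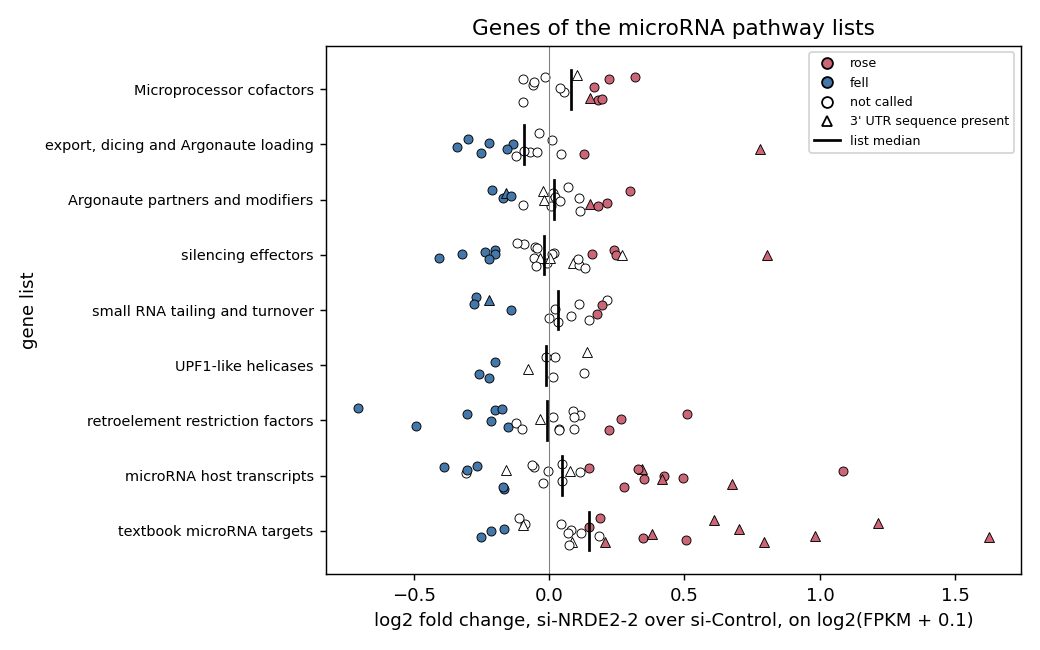
Log2 fold change (si-NRDE2-2 over si-Control) of each tested gene of the 9 lists, red where it rose, blue where it fell and white where not called, with triangles for genes whose 3′ UTR holds at least 1 of the 3 sequences and a bar at each list's median. List medians lie between -0.09 and 0.15, and 8 of the 12 targets that rose are triangles. The 3 sequences were picked on these same fold changes.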

How the data were processed

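RNA-seq of 6 libraries was used, 3 per group, with groups and replicate numbers from the sample titles. Per the labels' protocols, the mirVana kit gave total RNA, from which TruSeq Stranded mRNA libraries were prepared. The authors deposited FPKM values per gene and library, read as FPKM from their decimals and from library sums of 448986 to 486271. The submitters' processing notes name STAR 2.5.1b, DESeq2 1.10.1 and hg19. The program that made the values, its annotation and its strand setting are not given in the sources used here. Another 4 columns, with values in 3 rows, were not used.

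Small RNA rows were left out, and a gene was tested where 3 or more libraries reached 1 FPKM. log2(FPKM + 0.1) was fitted with limma 3.58.1 (R 4.3.3; trended, robust prior variance; group the only term) with Benjamini-Hochberg adjustment over 11789 genes. A log2 fold change on this scale understates the change of low genes. Depth was estimated from steps between low values, where 1292 of 2291 genes averaging 0.05 FPKM or less (56.4%) held whole multiples within 0.02. This gives the scale of depth only, and no count test was run.

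The members and lists were chosen with earlier results of these data known. Named genes were the members, NRDE2, AGO4, MOV10L1, neighbours of MOV10, genes overlapping a member, the 5 genes most like MOV10, and up to 3 called genes per list and direction by smallest adjusted p. CNOT1, CNOT10, HNRNPA2B1, ERH, AJUBA, FMR1, FXR1, RNASEH2B, RNASEH2C, PANK1, PANK2, PANK3 and the helicases not called were named after their values were seen. Transcript length, GC content and 3′ UTRs came from 1 GENCODE release 29 transcript per gene (GRCh38), mature microRNAs from RefSeq.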

Additional observations from a re-analysis of the deposited data

How the results depend on the processing

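Of 16 alternatives, 6 left out a library. The number of genes called ran from 3929 to 6540. The log2 fold change of MOV10 stayed between -1.21 and -1.07, and 0 of the other 9 members fell in any alternative. The members that rose numbered 3 in the fit used. They numbered 1 with no filter on low values, 1 with the same FPKM total and 0 to 3 when a library was left out. With a mean of at least 5 FPKM, where TNRC6C was not fitted, they numbered 2. DICER1 ran from -0.0891 to 0.0835 and DGCR8 from -0.0368 to 0.0512 when a library was left out. The DICER1 difference turned positive when control 1, control 2 or knockdown 1 was missing, and that of DGCR8 negative when control 3 or knockdown 1 was missing. The cause was not tested. Called genes of the export, dicing and loading list numbered 8, and 5 to 8 with a library left out, and those of the Argonaute partners 8, and 3 to 8. The silencing effectors had 10 called genes, 16 with length and GC trends removed and 8 to 14 with a library left out. A mean of at least 5 FPKM left 5 of the 9 members fitted. Same-numbered libraries had correlations of -0.12, 0.11 and -0.12 of their deviations from the group means. Libraries with different numbers had -0.11 to 0.17. With 3 libraries per group, these values cannot decide whether libraries of the same number were handled together. With the replicate block 4686 genes were called, and 0 members changed call. TNRC6C, with about 700 fragments in the shallowest library, is the member whose values counting error limits most.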
